A study of Mus musculus with 9 samples.

Results

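Transcripts of 44 lysosomal genes, which encode hydrolases and membrane proteins of the lysosome, were followed in RNA-seq of whole mouse brain. The 44 genes were given as a list of symbols, each was matched to 1 Ensembl gene ID of the count table (44 of 49315 IDs), and all 44 were among the 18492 genes with enough reads to be tested. The samples were the brains of 5 young and 4 old male C57BL/6J wild-type mice, 1 library to each individual brain. The labels give an age of 3 months for the young and 33 months for the old mice, and the study's text has 3 or 4 months for young ones. No mouse carried a transgene or received a treatment as far as the labels state, so age was the only labelled difference, and both ages share the strain and the sex. The question was which lysosomal transcripts differ between old and young brain, and whether 8 genes known for high expression in microglia differ more than the 36 that most brain cells express.

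Lysosomes are acidic organelles in which proteins, glycans and lipids delivered by endocytosis, phagocytosis and autophagy are broken down. Soluble hydrolases act in the lumen, glycosylated membrane proteins line and guard the bounding membrane, and the transcription factor TFEB raises many of these genes together by binding an E-box variant near their start sites. All brain cells hold lysosomes, and inherited loss of a single hydrolase is typically a storage disease with neurodegeneration. Microglia, the resident phagocytes of the brain, carry a particularly large lysosomal load and express some members, such as cathepsin S and lysozyme M, at levels far above neurons.

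Between 14229259 and 21150439 read counts fell on genes per library. Members held from 77.00 counts (Cd68) to 30692 counts (Psap) per library. Values are given in CPM, a gene's count scaled to a fixed library total, with TMM factors that correct for library composition, and within each gene in the order young replicates 1 to 5, then old replicates 1, 3, 4 and 5. The study calls the mice biological replicates, the labels say only that they are separate samples, and the p-values measure the spread between these samples. Markers of neurons, astrocytes and oligodendrocytes were abundant in every mouse, as whole brain would have them, with summed levels of 6564 to 7270.3, 4407 to 5148 and 6315 to 8511 CPM. Young replicate 4 stood apart from the other 4 young mice in many members, so results are given with and without it. Old replicate 4 held far more neutrophil transcript than the other mice, with a summed level of 105 CPM over 10 monocyte and neutrophil markers against 1.52 to 6.91 CPM in the other 8. In bulk tissue, more cells of a type and more RNA per cell cannot be told apart.

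Of the 44 genes, 14 were higher in old brain and 0 were lower (edgeR's quasi-likelihood test, adjusted p under 0.05, Benjamini-Hochberg adjustment over all 18492 genes). Over all genes tested, 6.20% were called higher and 4.83% lower. At an unadjusted p under 0.05, 25 members were higher and 1, Sgsh, was lower, where 2514 of all 18492 genes were higher and 2289 lower. DESeq2's Wald test called 13 members higher and 0 lower. The called genes were the cathepsins Ctss, Ctsz, Ctso and Ctsa, lysozyme Lyz2, the membrane proteins Cd68, Laptm5, Npc1, Lamp2 and Scarb2, the glycosidases Man2b1 and Fuca1, and the lipid-handling Npc2 and Asah1. Ctss, Cd68 and Lyz2 also passed a log2 fold change of 0.58, a 1.49-fold change, which 2.28% of all genes did. The other 11 called genes rose by log2 0.12 to 0.57.

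The median log2 fold change of old over young was 0.12 over the 44 genes, 0.54 over the 8 microglia-enriched ones and 0.11 over the 36 broadly expressed ones, and 0.00 over all genes tested. In single genes the change ran from -0.19 (Sgsh) to 1.90 (Lyz2), with 34 members positive and 10 negative. On the deposited TPM scale (TPM, which divides counts by gene length and scales each library to 1 total), the median of all genes moved to -0.14 and limma on log2(TPM + 1) called only Ctss, Cd68 and Lyz2. Relative to that shift the members' median was 0.11, and 34 of the 44 lay above the median of all genes on both scales. The directions given here for single members are those of the CPM scale, and 17 members with small changes turn negative on the TPM scale before that shift is taken off. Leaving out 1 mouse at a time gave 9 to 16 called members, with 9 without young replicate 1, old replicate 4 or old replicate 5.

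Without young replicate 4, 16 members were called higher and 0 lower, where 6.33% and 4.38% of the 18132 genes tested were. The count past both thresholds went from 3 to 7, beside 2.90% of all genes, with Ctsd, Ctsz, Ctsh and Laptm5 added. Called in this fit and not over all mice were Ctsd, Ctsb, Ctsl, Ctsc and Ctsh, and called over all mice and not in this fit were Scarb2, Fuca1 and Asah1, which rose by similar log2 values in both fits (0.12 and 0.11, 0.21 and 0.21, 0.16 and 0.17). Every old mouse lay above every young mouse in 10 members, Lamp2, Cd68, Ctso, Ctss, Npc1, Psap, Man2b1, Fuca1, Scarb2 and Lyz2, and this was so for 6.50% of all genes. Without young replicate 4 it was so in 20 members, and for 8.65% of all genes. Sgsh alone lay lower in every old mouse, as 6.08% of all genes did.

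**Figure D1:**
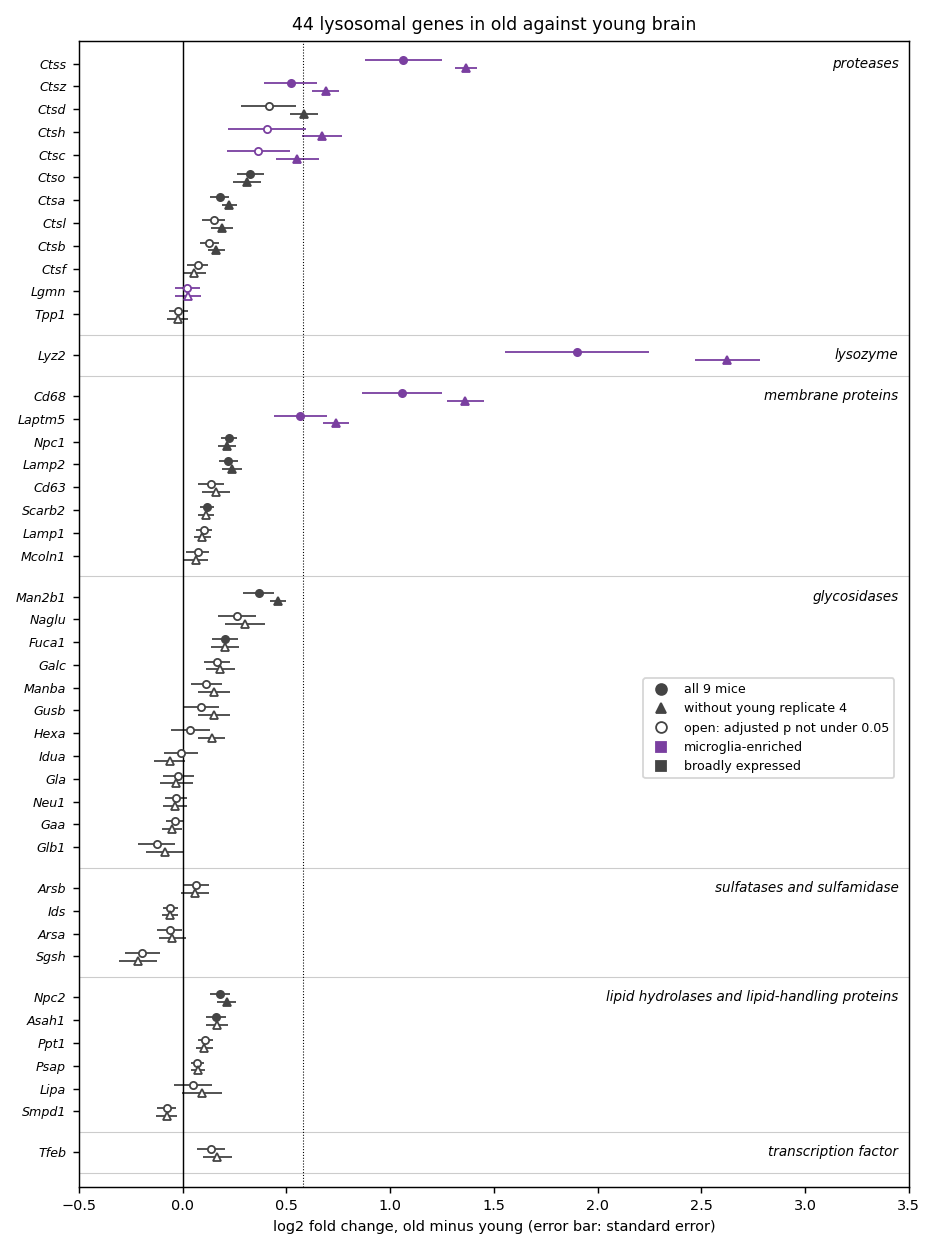
Log2 fold changes of old over young brain for the 44 genes, by role, with circles for all 9 mice and triangles without young replicate 4 (bars: standard errors, filled: adjusted p under 0.05, dotted line: 0.58). Lyz2, Ctss and Cd68 lie past 1 in both fits, most glycosidases, sulfatases and lipid hydrolases lie within 0.3 of 0, and the triangles of Ctsd, Ctsh and Ctsc lie to the right of their circles.

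Promoter sequences were set beside these changes, since the members share a known regulator and the microglia-enriched ones a known lineage factor. RefSeq windows (GRCm38.p6) from 250 bases before to 50 bases after a gene's start were held for 40 of the 44 genes, and the windows were searched on both strands for TCACGTG, the E-box variant that TFEB binds (CACGTGA on the other strand), and for GAGGAA, the core that the myeloid factor PU.1 binds (TTCCTC on the other strand). The E-box variant was present in 11 members, Lamp1, Ctsa, Ctsd, Gaa, Gla, Glb1, Naglu, Sgsh, Arsa, Lgmn and Mcoln1, a share of 27.5%, and in 4.29% of all 27025 genes with a window. It was present in 1 of 7 microglia-enriched and 10 of 33 broadly expressed members. Members with it had a median log2 fold change of 0.023 and 1 of 11 (Ctsa) was called, and the 29 without it had a median of 0.14 with 11 called. Counts by motif, here and below, are read against the 6.20% of all genes called higher. The 29 include every microglia-enriched member with a window but Lgmn, so this split in part repeats that grouping. The difference between the 2 sides was not tested. The PU.1 core was present in 16 members (40.00%, against 31.3% of all genes), in 4 of 7 microglia-enriched and 12 of 33 broadly expressed members. Of the microglia-enriched genes with a window, Ctss, Cd68, Ctsc and Laptm5 held it, and Lyz2, Ctsz and Lgmn did not. Of the 16 members with the core 5 were called, and of the other 24 members 7 were. These are matches of letters in short windows, and no binding was measured. Of the 45 windows of these members, 39 had bases that lay near the start of a GENCODE transcript of the gene. The other windows may not sit at a start site of that annotation.

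The windows of 5 genes that stand for these groups are printed 5′ to 3′ on the gene's own strand, with matches in capitals: the PU.1 core in Ctss (chr3:95526536-95526835, plus strand) and Cd68 (chr11:69666121-69666420, minus strand), which had the steepest rises among members with a window and that core, and the E-box variant in Lamp1 (chr8:13158911-13159210, plus strand), Ctsd (chr7:142387778-142388077, minus strand) and Ctsa (chr2:164833523-164833822, plus strand). Overlapping matches on the 2 strands appear as 1 run of capitals.
Ctss: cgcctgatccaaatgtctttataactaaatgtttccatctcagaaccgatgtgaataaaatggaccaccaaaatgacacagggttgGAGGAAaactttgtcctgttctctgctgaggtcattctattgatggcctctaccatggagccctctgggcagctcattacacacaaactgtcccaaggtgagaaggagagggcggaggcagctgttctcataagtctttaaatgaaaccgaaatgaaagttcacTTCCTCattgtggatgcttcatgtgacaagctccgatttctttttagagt
Cd68: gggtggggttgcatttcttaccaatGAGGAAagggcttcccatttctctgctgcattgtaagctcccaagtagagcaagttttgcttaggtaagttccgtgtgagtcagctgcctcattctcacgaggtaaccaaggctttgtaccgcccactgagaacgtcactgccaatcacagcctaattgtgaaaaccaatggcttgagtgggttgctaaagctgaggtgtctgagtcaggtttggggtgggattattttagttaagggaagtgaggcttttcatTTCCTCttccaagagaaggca
Lamp1: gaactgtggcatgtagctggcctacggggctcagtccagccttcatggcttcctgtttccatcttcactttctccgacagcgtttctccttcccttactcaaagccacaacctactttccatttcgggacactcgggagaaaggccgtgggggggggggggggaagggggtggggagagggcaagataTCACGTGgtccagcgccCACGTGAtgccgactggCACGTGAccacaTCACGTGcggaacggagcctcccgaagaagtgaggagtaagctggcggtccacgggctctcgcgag
Ctsd: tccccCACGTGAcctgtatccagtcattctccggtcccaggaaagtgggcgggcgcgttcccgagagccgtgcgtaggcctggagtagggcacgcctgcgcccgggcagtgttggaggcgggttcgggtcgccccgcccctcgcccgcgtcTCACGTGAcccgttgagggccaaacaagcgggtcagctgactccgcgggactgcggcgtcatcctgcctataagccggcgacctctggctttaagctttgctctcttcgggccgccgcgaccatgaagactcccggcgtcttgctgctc
Ctsa: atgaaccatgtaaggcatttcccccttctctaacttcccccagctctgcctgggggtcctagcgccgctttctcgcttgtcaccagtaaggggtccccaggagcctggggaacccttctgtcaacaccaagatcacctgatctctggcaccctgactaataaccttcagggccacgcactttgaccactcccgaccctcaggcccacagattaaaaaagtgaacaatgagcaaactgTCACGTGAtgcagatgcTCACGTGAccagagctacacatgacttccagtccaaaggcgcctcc
In Ctss a match began at position -164 and another at the start base, and in Cd68 they began at -225 and 30. Lamp1 held 4 E-box matches between -62 and -16, Ctsd held matches at -245 and at -99 with its overlapping partner at -98, and Ctsa had them at -13, -12, 5 and 6.

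The 5 members with the largest log2 fold changes were all microglia-enriched. Cathepsin S (Ctss, ENSMUSG00000038642, chr3:95526786-95556403), a cysteine protease that stays active at neutral pH and trims the MHC class II invariant chain, measured 31.1, 31.6, 31.8, 66.6 and 31.6 CPM in young and 75.1, 82.8, 87.9 and 79.7 CPM in old mice. Each old mouse lay above each young mouse, and young replicate 4 stood between the ages. The mean was 38.5 ± 15.7 CPM (SD, n = 5) in young and 81.4 ± 5.39 CPM (SD, n = 4) in old mice. The fitted rise was 2.09-fold, a log2 fold change of 1.06 ± 0.19 (SE, adjusted p = 0.00305), and without young replicate 4 it was 1.37 ± 0.053 (adjusted p = 7.23e-09). Cd68 (ENSMUSG00000018774, chr11:69664213-69666153), the phagocyte member of the LAMP family, measured 4.97, 4.98, 5.29, 10.8 and 5.31 CPM in young and 12.4, 12.6, 13.8 and 14.03 CPM in old mice. As in Ctss, young replicate 4 stood between the other young mice and the old ones, with no overlap of the ages. It rose by log2 1.06 ± 0.19 (adjusted p = 0.00381), or 1.36 ± 0.089 without young replicate 4 (adjusted p = 9.66e-07).

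Lysozyme M (Lyz2, ENSMUSG00000069516, chr10:117277331-117282321), which cleaves bacterial cell walls, had the largest change of the 44 genes. It measured 5.49, 5.75, 5.43, 23.5 and 6.98 CPM in young and 29.3, 33.9, 48.97 and 33.4 CPM in old mice. Young replicate 4 stood 3.98-fold above the mean of the other 4 young mice, yet below every old mouse, and old replicate 4, the mouse rich in neutrophil transcripts, was the highest of all. The fitted rise was 3.74-fold, a log2 fold change of 1.90 ± 0.35 (adjusted p = 0.00382), and without young replicate 4 it rose 6.16-fold, 2.62 ± 0.16 (adjusted p = 3.90e-07). Without old replicate 4 the log2 fold change was 1.72 (adjusted p = 0.0108). The near-identical gene Lyz1 held 0 to 3 counts per library, and reads that map to both copies were not counted, so the level of Lyz2 is uncertain in that respect.

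Laptm5 (ENSMUSG00000028581, chr4:130913125-130936141), a lysosomal transmembrane protein of blood-lineage cells, measured 21.2, 24.1, 21.99, 35.4 and 21.4 CPM in young and 33.8, 36.8, 38.6 and 38.98 CPM in old mice. Only young replicate 4 reached the old range. The change on the log2 scale was 0.57 ± 0.13 (adjusted p = 0.0109), and 0.74 ± 0.063 without that mouse (adjusted p = 9.80e-06). Cathepsin Z (Ctsz, ENSMUSG00000016256, chr2:174427493-174439039), a carboxypeptidase, measured 30.7, 34.1, 33.1, 51.98 and 32.6 CPM in young and 50.1, 50.7, 59.6 and 49.7 CPM in old mice, again with young replicate 4 alone inside the old range. It rose by log2 0.52 ± 0.13 (adjusted p = 0.0178), or 0.69 ± 0.065 without young replicate 4 (adjusted p = 2.11e-05), and its exons overlap Nelfcd on the opposite strand. In a robust quasi-likelihood fit, chosen after the data were seen, neither Ctsz (adjusted p = 0.0882) nor Laptm5 (0.0542) passed the threshold, and Ctss (0.0398), Cd68 (0.0175) and Lyz2 (0.0476) did.

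Cathepsin H (Ctsh, ENSMUSG00000032359, chr9:90054152-90076089), an aminopeptidase, and cathepsin C (Ctsc, ENSMUSG00000030560, chr7:88278085-88310888), which activates the serine proteases of granules, were called only without young replicate 4. Ctsh measured 8.52, 9.79, 9.83, 19.1 and 11.2 CPM in young and 13.8, 15.5, 17.1 and 16.1 CPM in old mice. Young replicate 4 was the highest of all 9 mice, and the other 4 young mice lay below every old one. The log2 fold change of Ctsh was 0.41 ± 0.19 over all mice (adjusted p = 0.184) and 0.67 ± 0.097 without that mouse (adjusted p = 0.000703). Ctsc measured 7.42, 6.92, 7.83, 12.6 and 8.28 CPM in young and 12.1, 10.2, 12.4 and 9.92 CPM in old mice, with young replicate 4 above all old mice and the other young mice below them. The corresponding values for Ctsc were 0.37 ± 0.15 (adjusted p = 0.145) and 0.55 ± 0.10 without young replicate 4 (adjusted p = 0.00389). Legumain (Lgmn, ENSMUSG00000021190, chr12:102394084-102439813), an asparaginyl endopeptidase that matures other cathepsins, was the exception in the group, with 95.9, 121, 103, 106 and 100.3 CPM in young and 100.3, 109, 110.1 and 109 CPM in old mice. The ages overlapped, and its log2 fold change was 0.023 ± 0.059 (adjusted p = 0.846). By CPM it was the most abundant of the 8 at both ages, and by median TPM in young mice.

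**Figure D2:**
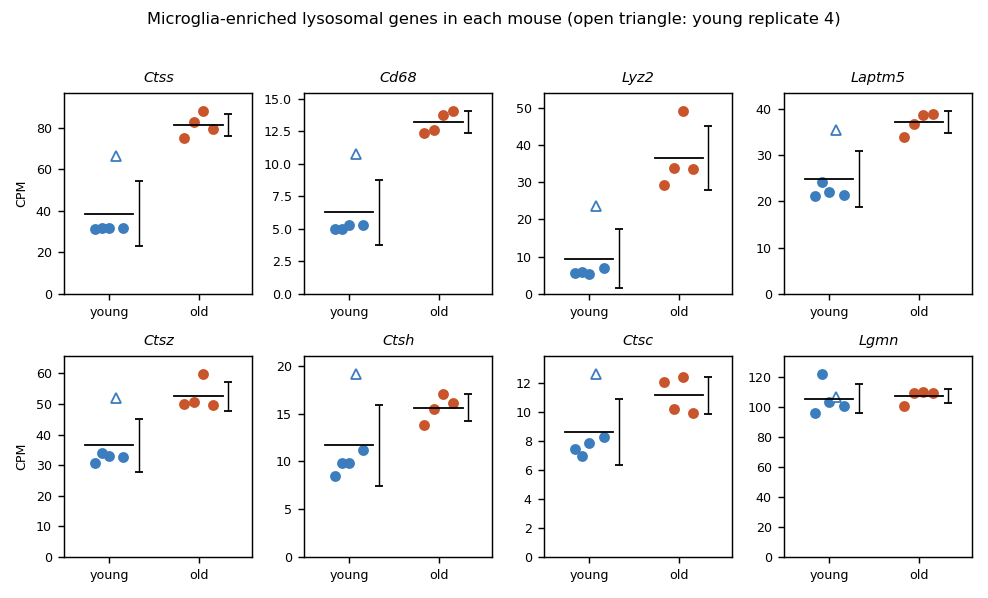
CPM of the 8 microglia-enriched genes in each mouse on linear axes from 0 (points: mice, open triangle: young replicate 4, horizontal line: mean, bar: SD). Young replicate 4 lies apart from the other young mice in every panel but Lgmn, between the ages in Ctss, Cd68 and Lyz2 and above all old mice in Ctsh and Ctsc.

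Some markers of microglia and of other phagocytes were also higher in old brain. Counts of markers, here and below, are read against the 6.20% of all genes called higher and the 4.83% called lower (6.33% and 4.38% without young replicate 4). Of 12 homeostatic microglia markers 3 were called higher and 0 lower (median log2 fold change 0.20), with Tmem119 at 0.53, adjusted p = 0.000933, Selplg at 0.45, adjusted p = 0.00106 and Sall1 at 0.68, adjusted p = 0.0416. Of 12 genes of activated microglia 4 were called higher and 0 lower (median 0.81), namely Gpnmb (2.52, adjusted p = 0.000424), Cd9 (0.42, adjusted p = 0.00432), Axl (0.29, adjusted p = 0.0123) and Trem2 (0.89, adjusted p = 0.0306). Without young replicate 4 these counts were 4 and 10, with medians of 0.32 and 1.31. In the other young mice Itgax, Clec7a, Cst7 and Ccl3 of the activated list held at most 0.344 CPM. In that fit they passed the filter for reads through the old mice, in which they were higher. The count of 10 and the median of 1.31 thus rest in part on genes that could only come out higher. The summed level of the homeostatic markers was 209 to 274 CPM in young and 259 to 315 CPM in old mice, and that of the activated list 156 to 269 and 233 to 296 CPM. Young replicate 4 was the highest young mouse in both sums, at 274 and 269 CPM, but not in every homeostatic marker. Of the 3 called ones, it was the lowest young mouse in Tmem119 (11.6 CPM) and Sall1 (20.3 CPM) and the highest in Selplg (20.1 CPM). The 8 microglia-enriched members summed to 205 to 326 CPM in young and 327 to 389 CPM in old mice, so the sums of the ages did not overlap, with young replicate 4 (326) just under the lowest old mouse. Divided by the homeostatic sum of the same mouse, this was 0.940, 1.01, 0.986, 1.19 and 1.04 in young and 1.23, 1.27, 1.502 and 1.12 in old mice.

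Among perivascular macrophage markers 4 of 8 were called higher and 0 lower, F13a1, Stab1, Ms4a7 and Cd163 (log2 fold changes 0.31 to 1.90), and the summed level was 27.7 to 31.8 CPM in young and 36.4 to 45.5 CPM in old mice. Of 10 monocyte and neutrophil markers 3 had enough reads to be tested, and S100a9, S100a8 and Ngp were called higher. Old replicate 4 held 28.5, 21.01 and 23.04 CPM of them, and no other mouse held more than 1.86 CPM of any. Their young means were low (0.335, 0.406 and 0.410 CPM), as was that of Ms4a7 (0.265 CPM). Passing the filter for reads thus depended in part on the old mice, in which these genes were higher. All 5 blood markers were called higher (median 1.26), with sums of 86.1 to 116 CPM in young and 128 to 409 CPM in old mice. Neuron markers included 3 called lower of 10 (Thy1, Stmn2 and Map2), and oligodendrocyte markers 4 higher and 1 lower of 8. The astrocyte list held 1 higher of 8 (Gfap), and the endothelial list 4 higher and 1 lower of 8. No marker of these 9 lists was at 0 in every mouse. The part of cell numbers, of blood and of the phagocyte types in the lysosomal changes was not tested.

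**Figure D3:**
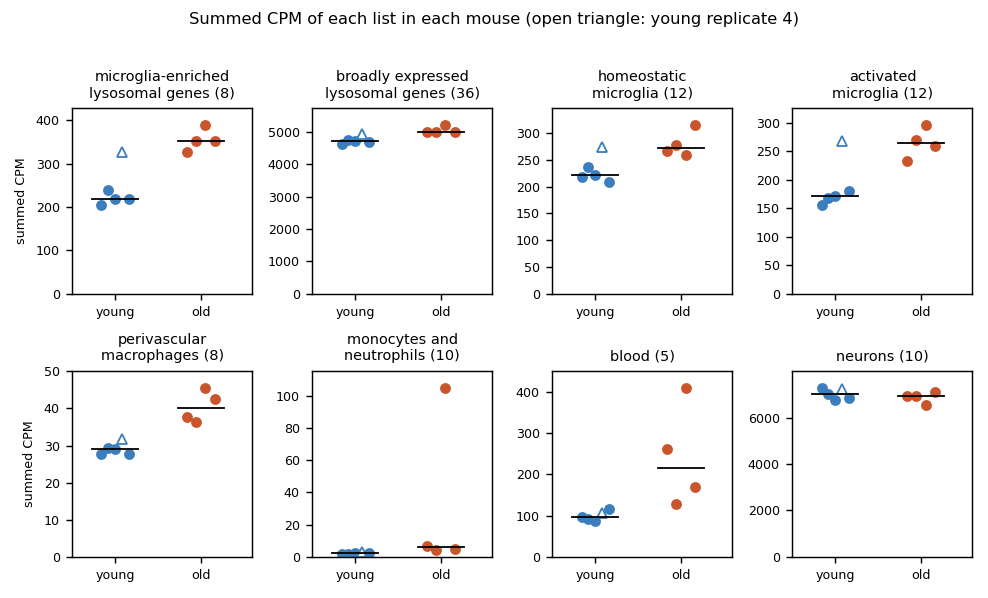
Summed CPM per mouse of the lysosomal genes by group and of cell type markers (points: mice, open triangle: young replicate 4, line: median, number of listed genes in brackets). Microglia-enriched lysosomal genes and both microglia lists place young replicate 4 at or near the old mice, while old replicate 4 is the single high mouse for monocytes and neutrophils.

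Of all 12 proteases, 4 were called over all mice and 9 without young replicate 4. Counts of each role, here and below, are read against the 6.20% and 6.33% of all genes called higher in these fits. Among the broadly expressed ones, Ctso and Ctsa were called over all mice, and Ctsd, Ctsb and Ctsl were not but were called without young replicate 4. Cathepsin O (Ctso, ENSMUSG00000028015, chr3:81932601-81956725), a cysteine protease, measured 26.7, 22.7, 27.1, 23.9 and 24.8 CPM in young and 30.3, 34.3, 30.2 and 30.8 CPM in old mice, without overlap and with young replicate 4 among the other young mice. Its log2 fold change was 0.33 ± 0.063 (adjusted p = 0.00521). Cathepsin A (Ctsa, ENSMUSG00000017760, chr2:164832873-164841032), a carboxypeptidase that also protects beta-galactosidase and neuraminidase, measured 83.9, 82.8, 83.8, 96.5 and 82.3 CPM in young and 95.8, 96.2, 99.9 and 96.97 CPM in old mice, and young replicate 4 alone lay in the old range. It rose by log2 0.18 ± 0.047 (adjusted p = 0.0266). That call was lost on leaving out young replicate 1, 2, 3 or 5 or old replicate 4 or 5 (adjusted p = 0.0511 to 0.0655), and the exons overlap Neurl2 and Pltp on the opposite strand.

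Cathepsin D (Ctsd, ENSMUSG00000007891, chr7:142375911-142388038), the main aspartic protease of lysosomes, measured 170.3, 176, 171, 283 and 182 CPM in young and 232, 245, 301 and 272 CPM in old mice. The other 4 young mice lay below every old mouse, whereas young replicate 4 was second only to old replicate 4. The log2 fold change was 0.42 ± 0.13 over all mice (adjusted p = 0.0584) and 0.59 ± 0.067 without young replicate 4 (adjusted p = 0.000120). Other fits over all mice were divided on Ctsd. It was called with every gene that had a count kept (adjusted p = 0.00191), in limma on the normalized counts (0.0404) and with the replicate number as a block (0.00842). It was not called by DESeq2's Wald test (adjusted p = 0.124), in limma on log2(TPM + 1) (0.467) or in the robust fit. Nor was it called in edgeR with DESeq2 or upper-quartile factors or with at least 1 CPM in 4 libraries (0.0587 to 0.0648). No read was assigned to Gm49369, which overlaps Ctsd on its strand. This does not show whether reads in the 808 shared exon bases were counted for Ctsd. Cathepsin B (Ctsb, ENSMUSG00000021939, chr14:63122462-63145923), the most abundant protease here, measured 485, 491, 485, 547 and 492 CPM in young and 536, 534, 584 and 535 CPM in old mice. It had the same layout, and its log2 fold change was 0.13 ± 0.044 (adjusted p = 0.0750) and 0.16 ± 0.039 without young replicate 4 (adjusted p = 0.0177). Cathepsin L (Ctsl, ENSMUSG00000021477, chr13:64359337-64370890) measured 61.7, 63.9, 62.7, 72.2 and 66.2 CPM in young and 73.1, 69.3, 79.8 and 67.9 CPM in old mice, with log2 fold changes of 0.15 ± 0.057 (adjusted p = 0.106) and 0.19 ± 0.053 without that mouse (adjusted p = 0.0365). Both Ctsb and Ctsl had negative values on the TPM scale. Exons of Ctsb overlap Fdft1 and those of Ctsl overlap Gm47123 on the opposite strand, and Ctsl also overlaps Gm49230 on its own strand (395 bases). Cathepsin F (Ctsf, log2 fold change 0.072 ± 0.051) and tripeptidyl peptidase 1 (Tpp1, -0.021 ± 0.046), whose loss causes a childhood ceroid lipofuscinosis, were not called in either fit.

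Of the 12 glycosidases, which cut sugars from glycoproteins and glycolipids, 2 were called higher. Alpha-mannosidase (Man2b1, ENSMUSG00000005142, chr8:85083270-85098282), which trims mannose from glycoproteins, measured 46.04, 46.03, 48.1, 61.9 and 47.3 CPM in young and 65.8, 62.8, 64.7 and 64.4 CPM in old mice. Every old mouse lay above every young one, with young replicate 4 (61.9) close under the lowest old mouse. The rise on the log2 scale was 0.37 ± 0.076 (adjusted p = 0.00781), and 0.46 ± 0.041 without young replicate 4 (adjusted p = 1.21e-05). Alpha-fucosidase (Fuca1, ENSMUSG00000028673, chr4:135920735-135940311) measured 26.7, 31.6, 32.1, 29.7 and 27.9 CPM in young and 35.9, 35.3, 32.9 and 32.3 CPM in old mice, and the ages met between 32.1 and 32.3 CPM without overlap. It rose by log2 0.21 ± 0.062 (adjusted p = 0.0469). The call was lost on leaving out young replicate 1, 4 or 5 or any 1 of the old mice (adjusted p = 0.0542 to 0.118).

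The other 10 glycosidases were not called in either fit and had log2 fold changes from -0.12 to 0.26. Above 0 were Naglu (0.26 ± 0.093, adjusted p = 0.0875), which degrades heparan sulfate, the galactosylceramidase Galc (0.17 ± 0.063, adjusted p = 0.108), whose loss causes Krabbe disease, Manba (0.12 ± 0.075), beta-glucuronidase Gusb (0.091 ± 0.084) and the hexosaminidase subunit Hexa (0.038 ± 0.094), which is lost in Tay-Sachs disease. Below 0 were Glb1 (-0.12 ± 0.089), the beta-galactosidase, Gaa (-0.035 ± 0.044), the glycogen-degrading enzyme of Pompe disease, sialidase Neu1 (-0.030 ± 0.053), alpha-galactosidase Gla (-0.020 ± 0.073) and iduronidase Idua (-0.0073 ± 0.081). Galc passed the threshold when young replicate 2 was left out (adjusted p = 0.0249). In Hexa, young replicate 4 (59.8 CPM) was the highest mouse, above the other young mice (41.6 to 46.1 CPM) and the old ones (43.3 to 53.6 CPM). Young replicate 4 was also above all old mice in Glb1 and Gusb. Overlaps with another gene's exons were present for Hexa, Galc and Idua on the opposite strand and for Glb1 (Tmppe) on the same strand.

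Of the 3 sulfatases and the sulfamidase, 0 were called by edgeR or by DESeq2, and at an unadjusted p under 0.05 (edgeR) 1, Sgsh, was lower. Sulfamidase (Sgsh, ENSMUSG00000005043, chr11:119343425-119355536), which removes N-linked sulfate from heparan sulfate, measured 8.10, 8.91, 7.90, 7.73 and 8.22 CPM in young and 7.49, 7.40, 6.95 and 6.75 CPM in old mice. All 4 old mice lay below all 5 young mice, with a log2 fold change of -0.19 ± 0.085 (adjusted p = 0.168), and its exons overlap Card14 on the opposite strand. Iduronate sulfatase (Ids, -0.058 ± 0.036), one of the abundant members at 407 ± 7.46 CPM in young mice (SD, n = 5), arylsulfatase A (Arsa, -0.061 ± 0.061), which degrades the myelin lipid sulfatide, and arylsulfatase B (Arsb, 0.064 ± 0.061) had overlapping ages.

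Among the 6 lipid hydrolases and lipid-handling proteins, Npc2 and Asah1 were called higher. Npc2 (ENSMUSG00000021242, chr12:84754562-84773152), which hands cholesterol from the lumen to Npc1, measured 59.8, 60.9, 61.1, 68.2 and 63.9 CPM in young and 67.7, 69.6, 73.98 and 73.2 CPM in old mice. Young replicate 4 lay just inside the old range. The log2 fold change was 0.18 ± 0.047 (adjusted p = 0.0239), and the call was lost without young replicate 1 or 3 or old replicate 4 or 5 (adjusted p = 0.0583 to 0.0686). Acid ceramidase (Asah1, ENSMUSG00000031591, chr8:41340197-41374773) measured 53.5, 48.2, 52.2, 52.5 and 52.3 CPM in young and 52.8, 58.9, 59.9 and 59.8 CPM in old mice, where old replicate 1 lay among the young mice. Its log2 fold change of 0.16 ± 0.048 (adjusted p = 0.0478) lost its call without any mouse but old replicate 1 (adjusted p = 0.0584 to 0.124), and its sign was negative on the TPM scale. With all mice kept, Asah1 was not called by DESeq2's Wald test (adjusted p = 0.0546) or by limma on the normalized counts (0.0520), and the robust fit called it (0.0411).

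Prosaposin (Psap, ENSMUSG00000004207, chr10:60277627-60302597), the precursor of the saposins that present sphingolipids to their hydrolases, was by far the most abundant member. It measured 1449, 1487, 1446, 1483 and 1458 CPM in young and 1561, 1519, 1548 and 1525 CPM in old mice. The 4 old mice lay above the 5 young ones, by a log2 fold change of only 0.071 ± 0.031, which was not called (adjusted p = 0.169). Palmitoyl thioesterase (Ppt1, 0.11 ± 0.036, adjusted p = 0.0683), acid lipase (Lipa, 0.049 ± 0.092) and acid sphingomyelinase (Smpd1, -0.077 ± 0.046) were not called either, although Ppt1 passed without young replicate 5 (adjusted p = 0.0484). Ppt1 overlaps Cap1 on the opposite strand.

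All 8 membrane proteins had positive values on the CPM scale (on the TPM scale Scarb2, Lamp1, Cd63 and Mcoln1 did not), and beside Cd68 and Laptm5 the broadly expressed Npc1, Lamp2 and Scarb2 were called. Npc1 (ENSMUSG00000024413), which exports cholesterol from the lysosome, measured 99.6, 99.03, 106, 98.1 and 98.8 CPM in young and 110.4, 121, 121 and 116 CPM in old mice, without overlap and with young replicate 4 the lowest. Its log2 fold change of 0.22 ± 0.038 had the lowest adjusted p of the 44 genes (0.00278), and its exons overlap Gm15956 and Rmc1 on the opposite strand. Lamp2 (ENSMUSG00000016534, chrX:38401357-38456454), a major glycoprotein of the lysosomal membrane with a role in autophagy, measured 85.7, 84.2, 87.00, 90.6 and 83.6 CPM in young and 95.1, 101, 110.0 and 96.3 CPM in old mice. The ages did not overlap, and the log2 fold change was 0.22 ± 0.046 (adjusted p = 0.00779) or 0.24 ± 0.048 without young replicate 4 (adjusted p = 0.00650).

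Scarb2 (ENSMUSG00000029426, chr5:92441314-92506833), the receptor that carries glucocerebrosidase to lysosomes, measured 164, 164, 168, 162 and 164 CPM in young and 171, 180.0, 187 and 176 CPM in old mice. The gap between the ages was narrow but free of overlap, and the log2 fold change was 0.12 ± 0.034 (adjusted p = 0.0366). Its call was lost without any mouse but old replicate 1 (adjusted p = 0.0520 to 0.110), and its sign was negative on the TPM scale. Lamp1 (ENSMUSG00000031447, chr8:13159161-13175338), the other major membrane glycoprotein, measured 264, 269, 272, 263 and 274 CPM in young and 271, 287, 306 and 289 CPM in old mice, with old replicate 1 inside the young range. At 0.10 ± 0.037 (adjusted p = 0.0948) it was not called, and it passed without old replicate 1 (adjusted p = 0.0368), with exons that overlap Grtp1 on the opposite strand. The tetraspanin Cd63 (0.14 ± 0.063) and the calcium channel Mcoln1 (0.073 ± 0.057), a known TFEB target, were not called in either fit.

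**Figure D4:**
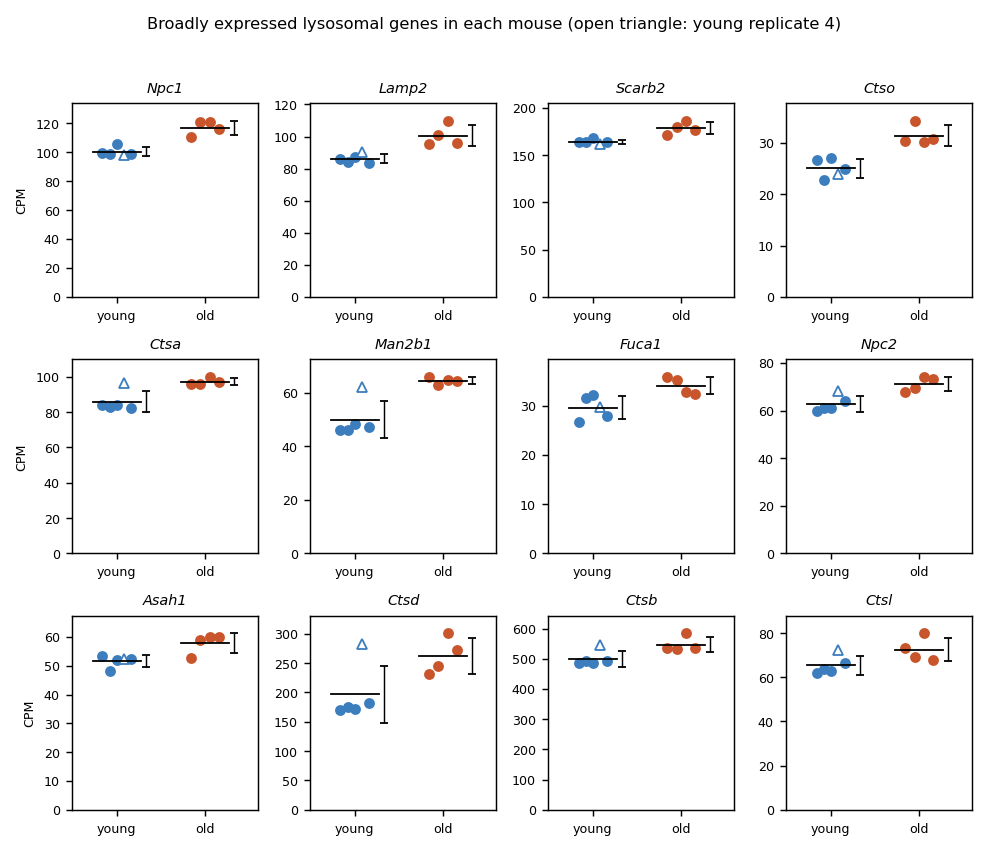
CPM in each mouse of the 9 broadly expressed genes called over all mice and of Ctsd, Ctsb and Ctsl, which were called without young replicate 4 but not over all mice, on linear axes from 0 (points: mice, open triangle: young replicate 4, line: mean, bar: SD). Npc1, Scarb2, Ctso and Fuca1 show young replicate 4 with the other young mice, and Man2b1, Ctsa, Npc2, Ctsd, Ctsb and Ctsl show it at or near the old ones.

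Tfeb, the transcription factor of the lysosomal gene network, measured 12.02, 13.5, 13.2, 14.3 and 13.2 CPM in young and 14.98, 14.5, 14.2 and 14.6 CPM in old mice. Young replicate 4 again lay in the old range and the other 4 young mice below it, with a log2 fold change of 0.14 ± 0.067 (adjusted p = 0.215) and 0.17 ± 0.070 without that mouse (adjusted p = 0.151). Of 17 tested genes of related factors and nutrient signalling, 3 were called higher and 0 lower, with Fnip1 at 0.23, adjusted p = 0.00155, Mitf at 0.35, adjusted p = 0.0137 and Rragc at 0.14, adjusted p = 0.0298. Lists of other lysosomal proteins are read against the 6.20% of all genes called higher and the 4.83% called lower. Among 23 other soluble lysosomal proteins 3 were called higher and 0 lower, among them progranulin Grn (0.30, adjusted p = 0.0470). Of 25 other membrane proteins the cystine exporter Ctns (0.26, adjusted p = 0.0149) was called higher and Abcb9 (-0.31, adjusted p = 0.0103) and Lamp5 (-0.35, adjusted p = 0.0205) lower. The proton pump had 3 of 19 subunits called higher and 0 lower, Atp6v0e, Tcirg1 and Atp6v1g1, with a list median of -0.021. Of 16 genes that sort hydrolases to lysosomes, such as M6pr and Igf2r, 0 were called, with 2 higher and 0 lower at an unadjusted p under 0.05 (edgeR), as 2514 and 2289 of all 18492 genes were. Of the 4 cystatins, which inhibit cathepsins, Cst3 was called (0.21, adjusted p = 0.00809), and Cst7 stood at 1.75, adjusted p = 0.0838, and at 3.73 without young replicate 4 (adjusted p = 5.62e-06). Cst7, also on the activated microglia list, held 0.124 to 0.344 CPM in the other 4 young mice, so the 3.73 rests on few young reads. Young replicate 4 held 3.86 CPM, inside the old range of 2.75 to 4.71 CPM.

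Set side by side, 5 of 8 microglia-enriched members and 9 of 36 broadly expressed members were called higher over all mice, and 7 of 8 and 9 of 36 without young replicate 4. The shares of all genes called higher in these fits were 6.20% and 6.33%. Past both thresholds were 3 and 0 over all mice, and 6 and 1 (Ctsd) without young replicate 4, where 2.28% and 2.90% of all genes were. The medians without that mouse were 0.71 and 0.13. With a wider microglia group that adds Ctsb, Ctsd, Cd63 and Npc2, 6 of 12 and 8 of the remaining 32 were called, with medians of 0.41 and 0.082. Young replicate 4 was the highest young mouse in 7 of the 8 microglia-enriched genes and in 14 of the 36 others, where it was so in 20.2% of all genes tested. Its median log2 ratio to the mean of the other 4 young mice was 0.84 in the first group and 0.024 in the second. These are descriptions, as the groups were drawn from background knowledge with earlier results of these data known. The difference between them was not tested.

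Per length, the levels of the members spanned a wide range. On the TPM scale the median of the 5 young mice was 1387 for Psap, 265 for Ctsb, 258 for Lamp1, 205 for Gaa, 205 for Ids and 197 for Ctsd, and at the other end 4.99 for Sgsh, 4.75 for Manba and 3.48 for Ctsc. Apart from Psap, whose lowest young mouse (1180.0 TPM) was above the highest young value of any other member (349 TPM, Ctsb), neighbours among the 6 highest and the 3 lowest overlapped between young mice. Lyz2 went from a median of 12.4 to 61.4 TPM, Ctss from 62.3 to 141 TPM and Cd68 from 10.7 to 24.8 TPM. None of the 6 members highest in young brain was called over all mice, where 6.20% of all genes were called higher and 4.83% lower. Of these 6, Ctsb and Ctsd were called without young replicate 4. All 44 genes summed to 4839 to 5254 CPM in young and 5317 to 5599 CPM in old mice. Psap alone made up 28.2% to 29.95% of that sum in young and 27.6% to 29.4% in old mice. The microglia-enriched genes made up 4.24% to 4.79% in young replicates 1, 2, 3 and 5, 6.21% in young replicate 4 and 6.15% to 6.94% in old mice.

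**Figure D5:**
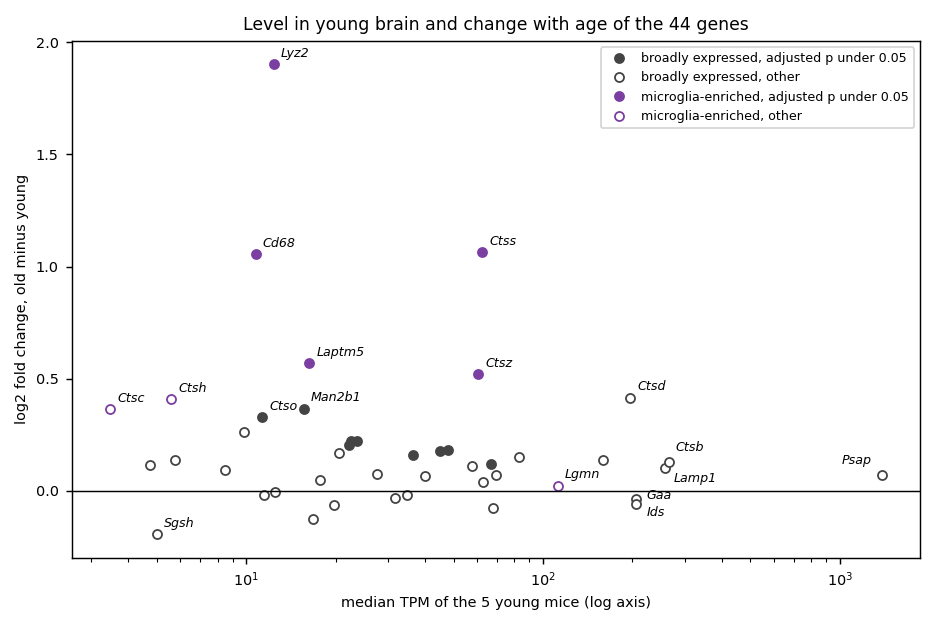
Median TPM of the 5 young mice (log axis) against the log2 fold change of old over young for the 44 genes, in purple for microglia-enriched and grey for broadly expressed genes (filled: adjusted p under 0.05). The genes past 0.5 lie between 10.7 and 62.3 TPM, and Psap, at 1387 TPM, lies near 0.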

How the data were processed

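Whole brains of male C57BL/6J mice were snap-frozen and RNA was extracted with Qiazol, selected for polyA and sequenced with ERCC spike-ins. The authors trimmed reads with Trimmomatic, aligned them with STAR to the Ensembl GRCm38 genome (mm10 in the submitters' notes) and counted uniquely mapped exon reads per gene ID with featureCounts, which gave the deposited raw counts. The authors also deposited a normalized table, a signal for 17994 genes made by dividing the raw counts by a size factor for each library, and TPM values, whose gene lengths are not given in the sources used here. Whether counting used strand is stated only for strand-specific libraries. The tables also hold 1 further column of per-sample values each, which matched no listed sample and was not analysed here.

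Gene IDs were matched to symbols in GENCODE M21 (49056 of 49315). Raw counts were tested in edgeR 4.0.16 (R 4.3.3) with TMM factors, filterByExpr (minimum count 10, minimum total 15) and the quasi-likelihood test, old against young, with Benjamini-Hochberg adjustment over all 18492 genes, and again without young replicate 4 (18132 genes). A change was called at an adjusted p under 0.05, and a second call also needed an absolute log2 fold change above 0.58. CPM values and their SD describe each mouse; intervals were not computed, as the spread between mice exceeds counting error. DESeq2 1.42.0 and limma 3.58.1 (log2 of TPM with a pseudocount of 1 or 0.1, and of normalized counts with 1), other factors and filters, the replicate block and leaving out each mouse were alternatives. Replicates differed by more than sampling noise, the smallest chi-square of a pair being 4.73 per degree of freedom. On simulated data for this comparison over 18492 genes, of 200 genes changed by log2 1, 87.5% were recovered and 4.89% of calls were false. The simulated data held no outlying mouse such as young replicate 4, and most members changed by less than log2 1. These rates therefore do not carry over to most of the calls given here.

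Windows around start sites came from RefSeq. All members could be named. Per-mouse values are given for members called in either fit, for the most abundant and for others chosen after their values were seen, and at most 4 genes of any other list, those with the lowest p. Some results on single genes of these lists are not reported here. The members, groups and lists were chosen with earlier results of these data known.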

Additional observations from a re-analysis of the deposited data

Results flagged for a closer look

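Young replicate 4 lay far above the other 4 young mice in 10 members. The gap to its nearest neighbour, as a share of the whole range of the young mice, both on the log2 CPM scale, was 0.970 for Ctss, 0.913 for Cd68, 0.883 for Ctsb, 0.879 for Ctsa, 0.871 for Ctsd, 0.851 for Man2b1, 0.830 for Lyz2, 0.801 for Ctsz, 0.754 for Laptm5 and 0.716 for Hexa, all above Dixon's 95% critical value for 5 samples. Of these 10 genes, 5 are microglia-enriched.

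Among young mice, replicate 3 was also the high one in Npc1 (0.790) and replicate 2 the low one in Asah1 (0.752). In the 4 old mice, replicate 4 was far above the others in Ctsb (0.953) and Ctsz (0.892), replicate 3 was far above them in Ctso (0.844), and replicate 1 lay far below them, again past the critical value, in Asah1 (0.869) and Lgmn (0.896). The 44 genes in both ages gave 88 groups, of which 17 stood out in this way, and chance gives about 1 in 20 of independent groups. These groups are not independent, since 10 of the 17 came from young replicate 4. The share of all genes tested that this rule flags is not given, so no excess particular to the members is shown.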

How the results depend on the processing

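On the TPM scale, limma called 3 members with a pseudocount of 1 and 3 with 0.1, where the members' median was -0.036 and -0.039 and that of the broadly expressed ones -0.059 and -0.060. The median of all genes was then -0.14 and -0.16, and the cause of that shift was not tested. The sign of 17 members turned in both, to -0.063 and -0.063 (Lamp1), -0.030 and -0.030 (Cd63), -0.035 and -0.035 (Ctsb), -0.096 and -0.097 (Ctsf), -0.015 and -0.015 (Ctsl), -0.11 and -0.11 (Hexa), -0.065 and -0.071 (Gusb), -0.096 and -0.097 (Arsb), -0.0051 and -0.0048 (Asah1), -0.094 and -0.094 (Psap), -0.10 and -0.11 (Lipa), -0.055 and -0.056 (Ppt1), -0.038 and -0.044 (Manba), -0.046 and -0.046 (Scarb2), -0.14 and -0.14 (Lgmn), -0.023 and -0.025 (Tfeb) and -0.092 and -0.095 (Mcoln1). Leaving out 1 mouse gave 9 to 16 members under the adjusted p threshold and 3 to 7 past both. It turned the sign of 7 members near 0, whose log2 fold changes then ran from -0.014 to 0.14 (Hexa), from -0.046 to 0.027 (Gla), from -0.061 to 0.052 (Idua), from -0.00063 to 0.12 (Lipa), from -0.062 to 0.0022 (Tpp1), from -0.058 to 0.016 (Neu1) and from -0.0066 to 0.083 (Lgmn). The other fits (edgeR with DESeq2 or upper-quartile factors, DESeq2, every gene with a count, at least 1 CPM in 4 libraries, limma on the normalized counts, and the robust fit) called 12 to 14 members. Cd68, Ctss and Lyz2 were called in all 19 alternatives. With the replicate number as a block, 14 members were called, Ctsd and Galc in place of Scarb2 and Asah1. Neither the labels nor the study's text says that the numbers pair the mice. Deviations of same-numbered mice correlated at -0.12 to 0.17 across genes, and not every mouse correlated best with its own number. So few correlations cannot decide whether the mice were paired. The median SE of the log2 fold changes was 0.062 over all members and 0.17 over the microglia-enriched ones, and without young replicate 4 0.065 and 0.077.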
